A study of Mus musculus with 12 samples.

Results

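Ribosomes marked with biotin in the cytosol of mouse embryonic stem cells were purified, and the mRNAs they carried were set against RNA of the whole cell. Of the 12 libraries of the series, 6 belong to this comparison: 3 of ribosome-bound RNA and 3 of whole-cell RNA, all under cytosol targeting. The other 6 are the matching libraries under targeting to the endoplasmic reticulum (ER) and enter the model fit and the closing comparison of both pools of ribosomes. Every gene in the count files was considered, 55416 in all, and 16221 had enough reads to be tested.

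The cells are of the E14Tg2a.4 line, grown with serum and leukemia inhibitory factor. In every group they carried the ribosomal protein Rpl31 fused to FLAG, to a site for TEV protease and to AviTag, the short peptide to which a biotin ligase attaches biotin. ALIBi, the biotinylation system, was supplied as an N-terminal and a C-terminal fragment on transfected plasmids, so marked ribosomes come only from cells that took up and expressed both, whereas whole-cell RNA comes from all cells of the culture; a change on the ribosomes and a difference between these cells and the rest cannot be told apart. Marked ribosomes were captured from lysates with cycloheximide, which holds ribosomes on mRNA, and released with TEV protease; the whole-cell aliquot was set aside from the lysate before capture. Both kinds of RNA were selected for poly(A) tails. The labels call the 3 libraries of a group biological replicates and name no culture or day for them. Spread between libraries, which may be technical, is therefore all that p-values measure. The siRNA treatment mentioned for part of the wider work is not a label of any library used here.

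An mRNA occupied by many ribosomes has more chances to be pulled down than one with few, and an mRNA outside active translation has few. Cytosolic ribosomes translate proteins of the cytosol, nucleus and most of those imported by mitochondria, whereas proteins that enter the secretory pathway are mostly finished by ribosomes docked at the ER. Mitochondria have ribosomes of their own, built from other proteins, which translate the mRNAs of the mitochondrial genome.

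Levels are given in CPM, the reads of a gene scaled to the size of its library with TMM factors, and values of the 3 libraries of a group stand in the order of their replicate numbers. A change is the log2 ratio of ribosome-bound to whole-cell RNA with its standard error (SE) and a p-value from edgeR's quasi-likelihood test, adjusted by the Benjamini-Hochberg method over the genes tested; the threshold was 0.05. All levels are relative within a library, so the amount of RNA recovered by the capture is not in these values. The ribosome-bound libraries held 23.3 to 25.1 M counted reads and the whole-cell libraries 23.4 to 25.5 M. Reads at more than 1 place in the genome made up 5.58% to 6.17% of the former and 7.37% to 7.52% of the latter. Stem cell genes marked both kinds of library: Pou5f1, which encodes Oct4, was at 1607, 1652 and 1664 CPM in ribosome-bound and 1602, 1533 and 1523 CPM in whole-cell RNA. Of the 9 fibroblast markers looked for, 5 had enough reads to be tested, and Lum and S100a4 were at 0 in all 3 whole-cell libraries. The 9 summed to 36.95 to 40.16 CPM in whole-cell RNA.

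In the 16221 genes, 3380 (20.8%) were higher in ribosome-bound RNA and 5360 (33.0%) were lower, so that 53.9% passed the threshold in either direction. The 3 and 3 libraries did not overlap for 58.6% of the genes. Most changes were small: 312 genes (1.92%) were higher and 594 (3.66%) lower by more than 2-fold. The median change over all genes was -0.05. The balance of higher and lower calls depended on the scaling and on the genes tested. As fitted 38.7% of calls were higher. Scaling on cytosolic gene lists, a replicate block and fits without ER whole-cell replicate 1 or cytosol ribosome-bound replicate 1 or 3 gave 37.7% to 39.9%. All other settings gave more, from 44.3% with DESeq2 to 48.9% (3882 higher and 4052 lower). The latter tested and scaled on only genes of at least 5 CPM in 3 libraries. RLE in place of TMM scaling gave 45.2%, and fits without 1 of the other ER libraries 46.8% to 47.0%. The median change of all genes moved by up to 0.0788 between these settings.

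**Figure D1:**
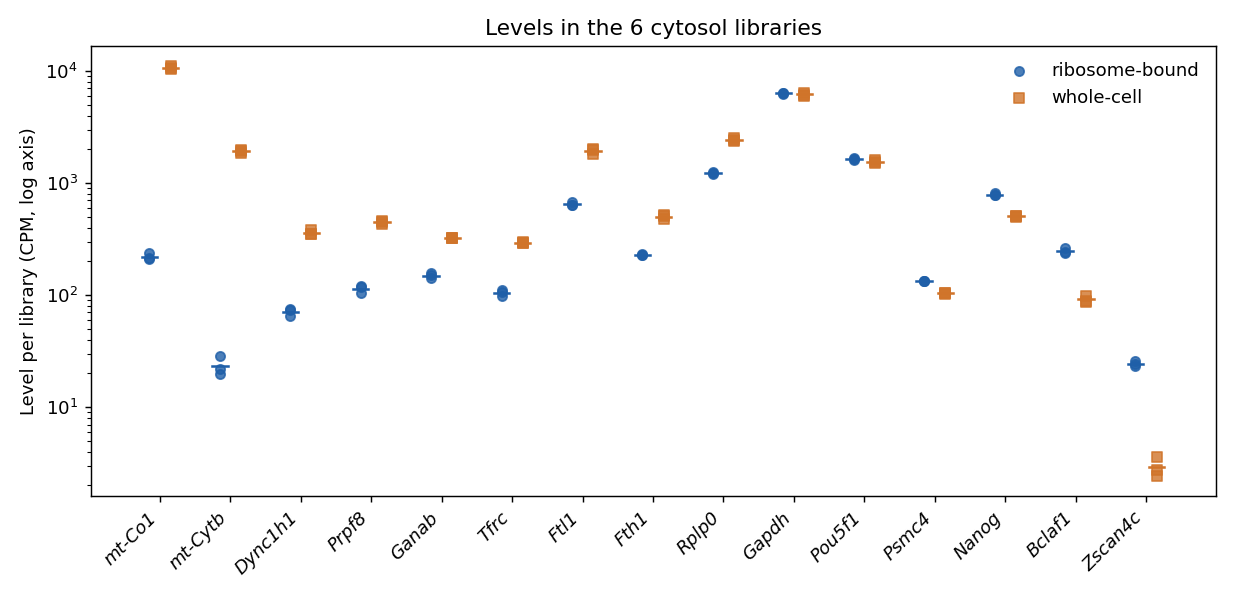
Levels of 15 genes in the 3 ribosome-bound (circles) and 3 whole-cell (squares) cytosol libraries, in CPM on a log axis, with a bar at each mean. The mitochondrially encoded mt-Co1 and mt-Cytb lie far lower in ribosome-bound RNA, Gapdh lies at nearly the same level in both, and Zscan4c lies higher in ribosome-bound RNA.

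The mRNAs of the mitochondrial genome were far lower on the marked ribosomes than in the cell. Of 13 such genes 12 were tested, and 12 of 12 were lower, with a median change of -5.98. Together the listed genes took 1.775% to 1.85% of counts in whole-cell RNA and 0.0355% to 0.0436% in ribosome-bound RNA. mt-Co1, a subunit of cytochrome c oxidase, was at 10501, 10602 and 11002 CPM in whole-cell and 239.7, 212 and 210.5 CPM in ribosome-bound RNA. Its change was -5.60 ± 0.05 (SE, adjusted p = 2.1e-40), or 48.5-fold lower. mt-Cytb, cytochrome b of complex III, fell from 1867, 1969 and 1926 CPM in whole-cell to 28.8, 21.7 and 19.8 CPM in ribosome-bound RNA, a change of -6.36 ± 0.07. In both genes the 3 ribosome-bound libraries lay close together and far under every whole-cell library. Nuclear genes hold copies of parts of the mitochondrial genome, and 51.1% of the 50-base stretches of mt-Co1 also occur in transcripts of other genes, against 0% of those of mt-Cytb. The same 12 genes had a median change of -5.90 on the ER-labelled ribosomes.

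Transcripts for the secretory pathway were lower on the cytosol-labelled ribosomes. The lists for this pathway held surface receptors, solute carriers, lysosomal, Golgi and ER proteins. Of 40 surface receptors 36 were lower and 0 higher (median -0.69), of 28 solute carriers 28 were lower (median -0.64), and of 30 lysosomal proteins 29 were lower and 0 higher (median -0.51). Golgi proteins (25 of 28 lower, 1 higher, median -0.49), enzymes of lipid synthesis at the ER (29 of 31 lower, 0 higher, median -0.47), the translocon and oligosaccharyltransferase, which moves sugar chains onto new proteins (25 of 29 lower, 2 higher, median -0.44), and ER chaperones (33 of 34 lower, 1 higher, median -0.39) followed. Secreted and matrix proteins were more mixed, with 23 of 34 lower, 2 higher and a median of -0.31.

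Igf2r, the receptor that carries mannose 6-phosphate proteins to lysosomes, was at 165, 163 and 164 CPM in whole-cell and 47.2, 47.3 and 48.8 CPM in ribosome-bound RNA (change -1.78 ± 0.04, adjusted p = 1.7e-29). Fn1, fibronectin of the extracellular matrix, was at 519, 544 and 518 CPM in whole-cell and 179.8, 161 and 181 CPM in ribosome-bound RNA (change -1.598 ± 0.04). Ganab, a glucosidase that trims sugar chains in the ER, was at 322, 323 and 321 CPM in whole-cell and 150.1, 143 and 156 CPM in ribosome-bound RNA (change -1.11 ± 0.04). In each of these genes all ribosome-bound libraries lay under all whole-cell libraries. Other marked members were Stt3a, a catalytic subunit of the oligosaccharyltransferase (-1.53), Lamp2 of the lysosomal membrane (-1.05), and Slc16a1, a lactate carrier (-1.03).

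Some members of these lists did not share the direction. Manf, a small secreted ER stress protein, was at 70.5, 79.5 and 76.1 CPM in ribosome-bound and 66.1, 70.5 and 72.2 CPM in whole-cell RNA and was slightly higher (0.12 ± 0.05, adjusted p = 0.03), with overlapping groups; the call was lost without ribosome-bound replicate 3 (adjusted p = 0.084). Serpine2, a secreted protease inhibitor, was at 37.2, 34.7 and 37.9 CPM in ribosome-bound against 17.1, 17.6 and 18.9 CPM in whole-cell RNA, 2.05-fold higher (adjusted p = 6.8e-17). Bmp4, a secreted growth factor, was higher by 0.21 ± 0.08, also with overlapping groups, and not without ribosome-bound replicate 1 (adjusted p = 0.14). Clu, an extracellular chaperone, had a change of 0.002 (adjusted p = 0.98) and Cd81, a tetraspanin, of -0.04 (adjusted p = 0.38).

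A classification of 14153 proteins by sequence did without lists. Proteins were sorted by hydrophobic stretches predicted from their translated coding sequence, a rough stand-in for signal peptides and membrane spans. Of 9116 genes with no such stretch 2709 were higher and 2476 lower (median 0.04). Of 1398 with an N-terminal and further stretches 72 were higher and 739 lower (median -0.32), and of 1075 with several internal stretches 55 were higher and 612 lower (median -0.33). An N-terminal stretch alone gave 449 of 1021 lower (median -0.20), and a single internal stretch 607 of 1273 lower (median -0.16). The 270 proteins whose only stretch lies at the C-terminus, as in tail-anchored proteins that are inserted into membranes after translation, were divided, with 64 higher and 62 lower; under a stricter definition of a stretch 58 of 318 were higher and 89 lower. The list of known tail-anchored proteins leaned higher instead, with 16 of 41 members higher and 5 lower (median 0.08). These are 39.0% and 12.2%, against 20.8% and 33.0% of all genes tested. Emd, emerin of the inner nuclear membrane, was at 103, 97.6 and 95.1 CPM in ribosome-bound against 80.3, 73.7 and 78.8 CPM in whole-cell RNA (0.35 ± 0.04), and Stx16, a SNARE of the Golgi, was lower (-0.43 ± 0.05).

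**Figure D2:**
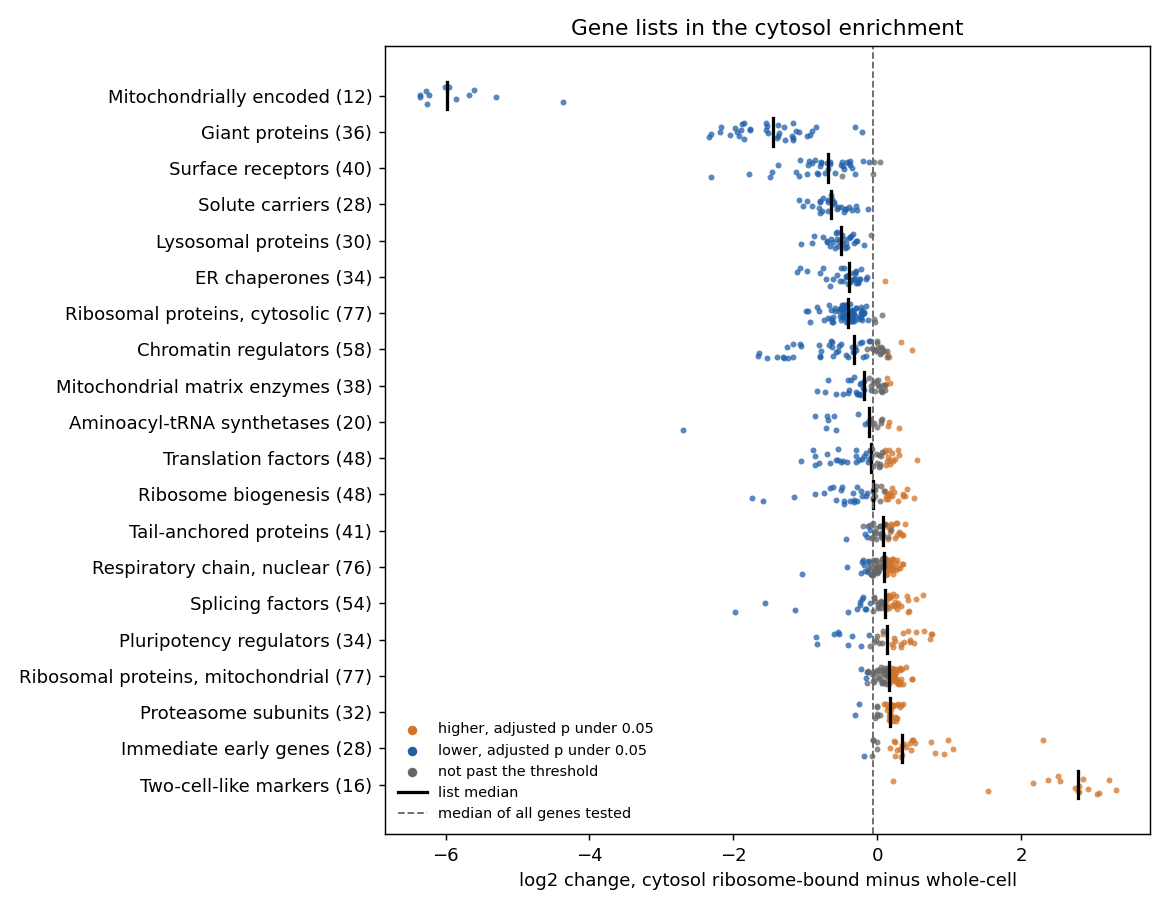
Each point is 1 tested gene of the named list (number tested in brackets), placed by its log2 change between cytosol ribosome-bound and whole-cell RNA; black bars mark list medians and the dashed line the median of all genes tested (-0.05). Mitochondrially encoded genes have a median of -5.98 and giant proteins of -1.45, whereas proteasome subunits (0.18) and two-cell-like markers (2.79) lie to the right.

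Transcripts with long coding sequences were lower on the ribosomes, both among proteins with and among those without hydrophobic stretches. Every tested member of a list of giant cytosolic and nuclear proteins was lower: 36 of 36, with 30 by more than 2-fold and a median of -1.45. Their share of counts was 0.348% to 0.371% in whole-cell and 0.135% to 0.15% in ribosome-bound RNA. Dync1h1, the heavy chain of cytoplasmic dynein with a coding sequence of 13932 nucleotides, was at 378, 354 and 353 CPM in whole-cell and 75.8, 64.7 and 73.4 CPM in ribosome-bound RNA. Its change was -2.34 ± 0.05 (adjusted p = 1.1e-30), 5.07-fold lower. Prpf8, a large protein at the core of the spliceosome, was at 462, 432 and 453 CPM in whole-cell and 121, 105 and 117 CPM in ribosome-bound RNA (change -1.97 ± 0.04). Both sets of 3 libraries were well separated in each gene. Mdn1, an AAA ATPase of ribosome assembly (16746 nucleotides, -2.31), Ubr4, a ubiquitin ligase (15540 nucleotides, -2.18), Vps13c, a lipid transfer protein (11244 nucleotides, -2.16), and Brca2, a DNA repair protein (9987 nucleotides, -2.05), were lower by a similar size. The exception in size was Plec, the linker protein plectin, at 41.2, 38.6 and 38.1 CPM in whole-cell and 36.7, 31.9 and 33.4 CPM in ribosome-bound RNA (change -0.21 ± 0.06, adjusted p = 0.0017); without ribosome-bound replicate 2 or whole-cell replicate 1 its adjusted p was 0.13 and 0.11.

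The dependence on coding length was graded over the whole range. The 9044 genes with no hydrophobic stretch, cytosolic ribosomal protein genes left out, were cut into 8 classes of near-equal size. In the 3 shortest classes, up to 1074 nucleotides, medians were 0.14, 0.16 and 0.14, and 109, 108 and 147 genes were lower (9.54% in the shortest class) against 42.7% to 45.3% higher. Medians then declined to 0.07, 0.04, 0.003 and -0.12, and in the longest class, from 2889 nucleotides, the median was -0.37, with 774 of 1131 genes (68.4%) lower and 76 (6.72%) higher. For proteins with an N-terminal stretch or several stretches the 4 length classes had medians of -0.11, -0.24, -0.35 and -0.52. The share lower was 36.0% in the shortest and 67.4% in the longest of these classes.

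**Figure D3:**
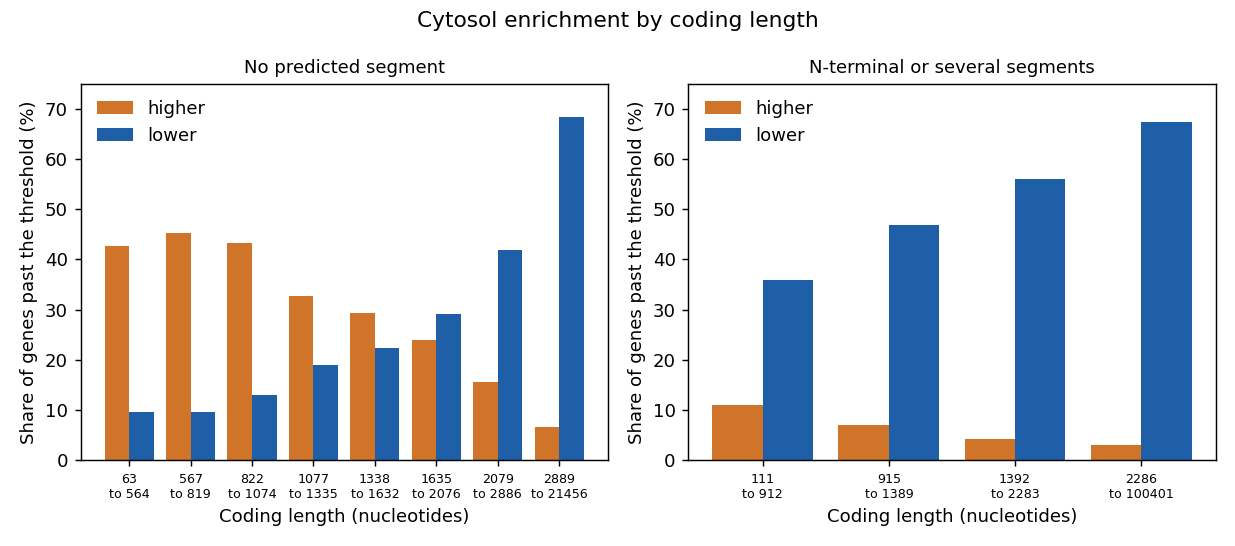
Share of genes higher (orange) and lower (blue) in cytosol ribosome-bound than in whole-cell RNA at an adjusted p under 0.05, by class of coding length, for proteins with no predicted hydrophobic stretch (left) and for those with an N-terminal or several stretches (right). In the left panel, which leaves out cytosolic ribosomal proteins, the share lower goes from 9.54% in the shortest to 68.4% in the longest class.

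Other features of the transcript ordered the medians too, again with cytosolic ribosomal protein genes left out. In the genes with no hydrophobic stretch, the median change went from 0.11 in the class with the shortest 3′ untranslated parts to -0.15 in the class with the longest, and from 0.12 with no ATTTA to -0.14 with 6 or more copies of ATTTA in that part. It went from -0.11 in the class with the least G and C at the third codon position to 0.18 in the class with the most. The 5′ untranslated length had medians of 0.01 to 0.06 with no order. Within the class of coding sequences up to 819 nucleotides the medians were 0.19 for shorter and 0.08 for longer 3′ parts, split at 940 nucleotides; within the class from 2079 nucleotides they were -0.16 and -0.27. Split by G and C at the third position, the same 2 length classes gave 0.11 (lower) and 0.18 (higher), and -0.28 and -0.13. Medians thus differed by coding length at either level of both features, and by each feature within these length classes. Their separate parts were not tested further.

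Of the genes not encoded in mitochondria, the 15 with the largest decreases were named among called genes with a mean of at least 10 CPM in the higher group, no overlap of libraries, no pseudogenes and no Gm or Rik names. Genes below that level reached larger decreases and are not ranked here. Of the 15, most encode very large proteins: Dync1h1, Mdn1, Ubr4, Vps13c, Brca2, Prpf8, Map1a of microtubules (-2.32) and Akap11, a kinase anchor (-2.08). Ltbp1 (-2.48) and Lama1 (-2.11) of the extracellular matrix and Lrp2, a giant endocytic receptor (-2.31), are both large and secretory. Ktn1, kinectin of the ER membrane, was lower (-2.08 ± 0.04), and Nbas, a Golgi-to-ER tethering factor, likewise (-1.998 ± 0.09). Mars1, the methionyl-tRNA synthetase, had the largest decrease of the 15, at 204, 199 and 204 CPM in whole-cell and 30.7, 29.1 and 33.3 CPM in ribosome-bound RNA (-2.70 ± 0.05, adjusted p = 1.1e-31). Its coding sequence in the annotation used is 2706 nucleotides, and it overlaps Ddit3, so reads in the shared part may be counted for neither or either gene. Rian, the remaining member, is a noncoding RNA.

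Transcripts for the proteins of the ribosome itself were lower. Of 77 cytosolic ribosomal protein genes 74 were lower and 0 higher, with a median of -0.41 and a range of -0.98 to 0.07. Most of these are short coding sequences. In the 3 shortest classes above, which leave these genes out, 42.7% to 45.3% of genes were higher. The ribosomal protein genes took 11.99% to 12.73% of counts in whole-cell and 10.4% to 10.7% in ribosome-bound RNA. Rplp0, the base of the ribosomal stalk, was at 2536, 2354 and 2409 CPM in whole-cell and 1214, 1246 and 1228 CPM in ribosome-bound RNA (-0.98 ± 0.03, adjusted p = 2.9e-23), 1.98-fold lower. Rps2, a small subunit protein, was at 4723, 4294 and 4457 CPM in whole-cell and 2102, 2422 and 2381 CPM in ribosome-bound RNA (-0.96 ± 0.04). Rpl27 had the change nearest zero among those named, -0.04 ± 0.03 (adjusted p = 0.4), with 873, 901 and 891 CPM in ribosome-bound against 935, 879 and 917 CPM in whole-cell RNA, and its groups overlapped. Many of these genes have processed copies: 41.8% of the 50-base stretches of Rplp0 and 71.3% of those of Rps2 occur in transcripts of other genes, which makes their counts uncertain.

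The gene that carries the tag, Rpl31, was at 1170.4, 1102 and 1156 CPM in whole-cell and 971, 984 and 947 CPM in ribosome-bound RNA. All 3 ribosome-bound libraries lay under the whole-cell libraries, with a change of -0.24 ± 0.03 (adjusted p = 1.2e-07). That is a smaller decrease than the median of the ribosomal protein list.

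Ribosomal protein mRNAs are known as TOP mRNAs, which start with a C followed by a run of pyrimidines and are translated according to growth signals. The starts below show such runs in capitals, from 4 genes picked after their values were seen and not meant to represent the list. They were taken from RefSeq promoters on GRCm38.p6, each 25 bases 5′ to 3′.
Rps27 (chr3:90213631-90213655, minus strand): tttcgCTCCTTTCCggcggtgacga
Rpl13a (chr7:45128724-45128748, minus strand): caagaCCTCCTCCTTTCCCaggcgg
Rps18 (chr17:33955648-33955672, minus strand): ttccgCTCTCTCTTCCacaggaggc
Eef1a1 (chr9:78481710-78481734, minus strand): ctccgCCCTCTTCCCgagggtgggg

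A run of at least 5 pyrimidines opening with C within 5 bases of an annotated start was found for 28 of the 57 ribosomal protein genes in that table (49.1%) and for 21.2% of all 27025 genes in it. With and without such a run the medians of the ribosomal protein genes were -0.40 (26 of 28 lower) and -0.41 (28 of 29 lower). In the remaining genes with no hydrophobic stretch the median was 0.05 at runs of 0 to 2 pyrimidines (3257 genes) and -0.06 at 11 or more (143 genes). Translation factors with a run of at least 5 had a median of -0.33 (4 of 6 lower, 1 higher). Those without had a median of 0.003 (14 of 31 lower, 10 higher). Annotated starts can lie several bases from the start used in these cells, so the run may be missed. Rps27 had a change of -0.80, Rpl13a of -0.74 and Rps18 of -0.47.

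Translation factors were divided. Of 48 tested 24 were lower and 14 higher (median -0.08). These are 50.0% and 29.2%, against 33.0% and 20.8% of all genes tested. Among the lower ones were elongation factors and poly(A)-binding proteins. Pabpc1, the main cytoplasmic poly(A)-binding protein, was at 3803, 3653 and 3710.5 CPM in whole-cell and 1771, 1804 and 1797 CPM in ribosome-bound RNA, 2.08-fold lower (-1.06 ± 0.03, adjusted p = 4.3e-25). Eef1a1, which brings aminoacyl-tRNA to the ribosome and was the most abundant mRNA of the cells, was at 17671, 17664 and 18371 CPM in whole-cell and 12321, 12803 and 12651 CPM in ribosome-bound RNA (-0.51 ± 0.03). Eef2, which moves the ribosome along the mRNA, was at 8239, 8004 and 7878 CPM in whole-cell and 5834, 5777 and 5819 CPM in ribosome-bound RNA (-0.47 ± 0.03). All 3 had separated libraries. Pabpc4 (-0.89), the initiation factor subunit Eif3a (-0.86) and Eif5b, which joins the subunits (-0.86), were lower as well. In the other direction Eif2s2, the beta subunit of initiation factor eIF2, was at 861, 909.5 and 897 CPM in ribosome-bound and 597, 607 and 604 CPM in whole-cell RNA (0.56 ± 0.03, 1.48-fold higher). Eif4a3 of the exon junction complex (0.31) and the scaffold Eif4g1 (0.28) were higher too.

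The small nucleolar RNA host genes, many of which also start with pyrimidine runs and hold only short open frames, had 14 of 17 members lower and 1 higher (median -0.47). Snhg6 was at 55.9, 56.2 and 58.3 CPM in whole-cell and 32.6, 31.6 and 29.0 CPM in ribosome-bound RNA (-0.87 ± 0.06). Snhg20 was the member higher (0.53 ± 0.12). Aminoacyl-tRNA synthetases had 11 of 20 lower and 3 higher (median -0.11). These are 55.0% and 15.0%, against 33.0% and 20.8% of all genes tested. Qars1 for glutamine (-0.86) and Vars1 for valine (-0.71) were lower, Wars1 for tryptophan (0.31) higher.

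Ferritin mRNAs were among the strongest decreases for short coding sequences. Cells store iron in ferritin, and iron regulatory proteins hold its translation back by binding a hairpin, the iron-responsive element, near the 5′ end of the mRNA. The stretches below, from GENCODE M21 transcripts, show the bulged C and the loop in capitals in 4 mRNAs known for this element; they are shown since the members split between lower and higher.
Ftl1: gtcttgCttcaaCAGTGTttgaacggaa
Fth1: ttcctgCttcaaCAGTGCttgaacggaa
Slc40a1: caacttCagctaCAGTGTtagctaagtt
Epas1: tacaatCctcggCAGTGTcctgagactg

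Ftl1, the ferritin light chain, was at 2031, 1833 and 1988 CPM in whole-cell and 643, 639 and 673 CPM in ribosome-bound RNA. Its change was -1.58 ± 0.04 (adjusted p = 3.7e-28), 2.99-fold lower, although its coding sequence has only 549 nucleotides. Fth1, the heavy chain, was at 508, 480.4 and 518 CPM in whole-cell and 229, 227 and 231 CPM in ribosome-bound RNA (-1.13 ± 0.04, 2.19-fold lower). The ribosome-bound libraries of both genes lay far under the whole-cell libraries. The result for Ftl1 is uncertain in size, since it has near-identical copies (78.9% of its 50-base stretches occur in other genes' transcripts), whereas Fth1 shares 2.88%. The iron exporter Slc40a1, which enters the membrane at the ER, was at 4.25, 4.68 and 2.804 CPM in whole-cell and 2.37, 3.45 and 2.83 CPM in ribosome-bound RNA (-0.45 ± 0.17, adjusted p = 0.026) with overlapping groups; its call was lost in 6 of 19 alternatives (adjusted p of up to 0.27, without whole-cell replicate 2). Epas1, a hypoxia transcription factor, went the other way, at 30.2, 31.0 and 30.4 CPM in ribosome-bound and 25.3, 28.4 and 26.3 CPM in whole-cell RNA (0.19 ± 0.06, adjusted p = 0.004).

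Letters alone did not mark a group of lowered mRNAs. The pattern of a C, 5 bases of any kind, CAGTG and 1 more base, read on the transcript strand in the first 200 bases of the 5′ untranslated part, occurred in 735 of 13874 tested genes (5.3%), of which 256 were lower and 155 higher, with a median of -0.05. The transferrin receptor Tfrc, whose elements lie in the 3′ untranslated part and affect stability, was at 289.9, 293 and 301 CPM in whole-cell and 107, 97.4 and 111 CPM in ribosome-bound RNA (-1.49 ± 0.04) and also belongs to the surface receptors. In the whole list of iron- and polyamine-regulated genes 9 of 15 were lower and 5 higher (median -0.27). Among its polyamine genes Odc1, the rate-limiting enzyme, was lower (-0.30 ± 0.03) and Smox, spermine oxidase, higher by 0.41 ± 0.07.

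Subunits of the proteasome, which degrades tagged proteins, and of the mitochondrial ribosome were mostly higher on the ribosomes. Of 32 proteasome subunits 24 were higher and 2 lower (median 0.18). Psmc4, an ATPase of its base, was at 133, 133 and 133 CPM in ribosome-bound and 104, 105 and 102 CPM in whole-cell RNA (0.36 ± 0.04, adjusted p = 1.2e-10), with no overlap. The lower members, Psmd1 (-0.31) and Psmd2 (-0.25), are its largest subunits. Of 77 mitochondrial ribosomal proteins 47 were higher and 4 lower (median 0.17). Mrpl41 was at 20.9, 22.0 and 20.9 CPM in ribosome-bound against 14.4, 14.7 and 16.3 CPM in whole-cell RNA (0.49 ± 0.07), and Mrpl9 was lower (-0.22 ± 0.05). The medians of both sets of ribosomal proteins differed, 0.17 for the mitochondrial and -0.41 for the cytosolic ribosome, and their ranges overlapped only between -0.22 and 0.07.

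Nuclear-encoded respiratory chain subunits had 36 of 76 higher and 11 lower (median 0.09). Atp5mc3, a ring subunit of ATP synthase, was at 372, 372 and 373 CPM in ribosome-bound against 280.5, 295 and 291 CPM in whole-cell RNA (0.37 ± 0.04). Sdha, the flavoprotein of complex II, stood apart at 341, 346 and 363 CPM in whole-cell and 166, 175 and 171 CPM in ribosome-bound RNA (-1.04 ± 0.04, adjusted p = 4.9e-23). Mitochondrial matrix enzymes leaned lower, with 21 of 38 lower and 3 higher (median -0.18). Ogdh of the citric acid cycle (-0.83) and Hadha of fatty acid oxidation (-0.72) were among the lower ones, and Mdh2, malate dehydrogenase (0.14), among the higher ones.

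Cytosolic chaperones had 15 of 32 higher and 8 lower (median 0.07). Hspa1a, the inducible Hsp70, was at 18.0, 19.1 and 18.2 CPM in ribosome-bound against 9.99, 9.88 and 10.2 CPM in whole-cell RNA (0.88 ± 0.07), with 60.3% of its 50-base stretches shared with other genes, and the prefoldin subunit Pfdn6 was higher by 0.46 ± 0.07. The chaperonin subunit Tcp1 was lower (-0.49 ± 0.03). In glycolysis 7 of 16 members were lower and 3 higher (median -0.07). These are 43.8% and 18.8%, against 33.0% and 20.8% of all genes tested. Gapdh, at 6398, 6198 and 6417 CPM in ribosome-bound against 6419, 6012 and 6146 CPM in whole-cell RNA, had a change of 0.03 ± 0.03 (adjusted p = 0.41), which passed in 11 of 20 alternatives; Tpi1 was higher (0.25) and Hk2, hexokinase 2 with a coding sequence of 2751 nucleotides, lower (-0.52). Of 36 cytoskeletal genes 13 were higher (36.1%) and 14 lower (38.9%). The small actin regulators Pfn1 (0.56) and Cfl1 (0.28) were higher. The myosin heavy chain Myh9 (-1.18) and the cross-linker Macf1 (-1.37) were lower.

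Nuclear proteins were divided in a similar manner. Splicing factors had 29 of 54 higher and 12 lower (median 0.12). Sf3b1, a U2 component, was at 746, 732 and 799.8 CPM in ribosome-bound against 475, 485 and 505 CPM in whole-cell RNA (0.64 ± 0.04, adjusted p = 1.9e-15), while Prpf8 and the helicase Snrnp200 (-1.55 ± 0.04) were lower. Snrnp70, a U1 protein with a coding sequence of 1344 nucleotides, was lower (-1.14 ± 0.05). Chromatin regulators had 38 of 58 lower and 5 higher (median -0.33), with 12 lower by more than 2-fold. Chd8, a remodeller, was at 103, 101 and 103 CPM in whole-cell and 33.4, 31.9 and 32.1 CPM in ribosome-bound RNA (-1.65 ± 0.04), and the methyltransferases Kmt2a (-1.65) and Kmt2d (-1.39) were lower. Smarcb1, a small subunit of the BAF remodeller, was at 147, 149.7 and 143 CPM in ribosome-bound against 103, 108 and 101 CPM in whole-cell RNA (0.49 ± 0.04).

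Replication and mitosis genes had 20 of 55 higher and 24 lower (median -0.07). Tpx2, a spindle assembly factor, was at 452, 446 and 455 CPM in ribosome-bound against 318, 316 and 327 CPM in whole-cell RNA (0.49 ± 0.03), and the polymerase subunits Pola1 (-1.39) and Pole (-1.03) were lower. Nucleolar ribosome biogenesis genes had 16 of 48 higher (33.3%) and 22 lower (45.8%), with a median of -0.06. They ran from Nop16 (0.52) to Heatr1 (-1.74), an mRNA of 6429 coding nucleotides. Of 368 genes named Zfp, most of them zinc finger transcription factors, 59 were higher and 98 lower (median -0.03), shares of 16.0% and 26.6% against 20.8% and 33.0% in all genes. Medians of the glycolysis, replication, nucleolar and Zfp lists lay on either side of zero depending on the scaling.

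Stem cell regulators were higher more often than lower, with 18 of 34 higher and 9 lower (median 0.14). Nanog was at 808, 779.7 and 783 CPM in ribosome-bound and 493, 509 and 511 CPM in whole-cell RNA, 1.57-fold higher (0.65 ± 0.03, adjusted p = 7.3e-19). Sox2 was at 757, 819 and 835 CPM in ribosome-bound against 584, 588 and 585 CPM in whole-cell RNA (0.46 ± 0.04). Both pairs of groups were separated. Tbx3 (0.74), Dppa2 (0.77), Zfp42, also called Rex1 (0.52), and Klf4 (0.38) were higher, Pou5f1 only by 0.08 ± 0.03 (adjusted p = 0.033, and 0.12 without ribosome-bound replicate 3) and Esrrb by 0.03 ± 0.04 (adjusted p = 0.47), which did not pass as fitted but did in 10 of 20 alternatives. The members lower included the DNA-modifying enzymes Tet2 (-0.85) and Dnmt1 (-0.83), both with long coding sequences (5736 and 4860 nucleotides), and Nr0b1 (-0.60).

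Immediate early genes, which are transcribed within minutes of a stimulus and whose mRNAs are short-lived, were higher in 22 of 28 cases and lower in 1 (median 0.35). Jun was at 38.6, 38.6 and 45.1 CPM in ribosome-bound and 21.3, 18.6 and 18.7 CPM in whole-cell RNA, 2.08-fold higher (1.06 ± 0.07, adjusted p = 4.2e-15). Myc was at 11.3, 12.7 and 11.4 CPM in ribosome-bound against 7.22, 7.54 and 6.40 CPM in whole-cell RNA (0.74 ± 0.10). The exception was Ccn2, a secreted matrix protein (-0.18 ± 0.08, adjusted p = 0.041), whose call was lost in 17 of 20 alternatives (adjusted p of up to 0.237). Cytosolic stress response genes were also mostly higher, with 14 of 21 higher and 1 lower (median 0.23), Gadd45a at 97.2, 111 and 105 CPM in ribosome-bound against 68.3, 68.9 and 70.7 CPM in whole-cell RNA (0.59 ± 0.04) and Bbc3, which promotes apoptosis, higher by 0.44 ± 0.05. Genes known for upstream open frames and stress-regulated translation had 4 of 19 higher and 9 lower (median -0.17). These are 21.1% and 47.4%, against 20.8% and 33.0% of all genes tested. Cebpb was higher (0.52) and Eprs1 lower (-0.68). Selenoprotein genes (7 of 19 higher, 8 lower, median -0.05) and interferon response genes (4 of 18 higher, 3 lower, median 0.003) had no common direction, and the sign of both medians changed with the scaling or the libraries used. The shares higher and lower were 36.8% and 42.1% for selenoproteins, and 22.2% and 16.7% for interferon genes.

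Histone genes were higher or did not pass. Of 11 replication-independent histone genes 9 were higher and 0 lower (median 0.19): H1f10 was at 223, 219 and 236 CPM in ribosome-bound against 164, 154 and 142 CPM in whole-cell RNA (0.56 ± 0.04) and Cenpa, the centromere histone, at 328, 332 and 324 CPM in ribosome-bound against 267, 260.1 and 267 CPM in whole-cell RNA (0.31 ± 0.03). The second histone list, mostly replication-dependent genes whose mRNAs end in a stem-loop and largely escape poly(A) selection, had 12 of 32 tested members higher and 0 lower (median 0.40). Their levels were low, with H4c9 at 3.02, 2.98 and 4.01 CPM in ribosome-bound against 1.64, 1.70 and 1.66 CPM in whole-cell RNA (1.00 ± 0.18).

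Genes of the two-cell-like state were higher on the ribosomes, and they hold the 5 largest increases among genes named under the same limits of level, overlap and name. It is a rare state in stem cell cultures that resembles the embryo after its first division. All 16 tested members of the list were higher, 15 of them by more than 2-fold, with a median of 2.79; Tcstv1 did not pass the filter and Dux had no match. Zscan4c, a zinc finger protein of that state, was at 24.4, 25.6 and 23.3 CPM in ribosome-bound and 2.45, 3.58 and 2.76 CPM in whole-cell RNA, 8.35-fold higher (3.06 ± 0.11, adjusted p = 2.1e-23). Gm5662 was at 16.2, 20.0 and 19.4 CPM in ribosome-bound against 1.32, 2.09 and 2.19 CPM in whole-cell RNA (3.32 ± 0.14), and Usp17le, a deubiquitinase gene, at 11.8, 11.8 and 12.9 CPM in ribosome-bound against 1.32, 2.13 and 1.58 CPM in whole-cell RNA (2.86 ± 0.13). In all 3 genes the lowest ribosome-bound library was several times the highest whole-cell library. These genes form families of near-identical copies: 85.5% of the 50-base stretches of Zscan4c, 95.3% of those of Zscan4f and 77.9% of those of Gm5662 occur in transcripts of other genes, so counts of single members are uncertain. The exception in size was Eif1a, an initiation factor gene expressed in all cells (0.23 ± 0.04). In bulk RNA, more cells in this state and more RNA per cell cannot be told apart. Nor can a higher share on ribosomes and an unequal make-up of the marked and the whole population of cells.

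Markers of other cell types were at low levels except some neural and epiblast genes. The summed level of 10 endoderm markers was 24.8 to 27.0 CPM in ribosome-bound and 17.25 to 18.1 CPM in whole-cell RNA, with 4 of 7 tested members higher and 1 lower. Gata6 was at 4.78, 4.80 and 4.15 CPM in ribosome-bound against 3.29, 2.26 and 2.15 CPM in whole-cell RNA (0.83 ± 0.18). The 8 mesoderm markers summed to 25.65 to 29.63 CPM and 18.7 to 19.9 CPM (3 of 7 tested higher, 0 lower), and the 9 neural and epiblast markers to 212.1 to 219.0 CPM and 166.7 to 179.1 CPM (3 of 8 higher, 1 lower). The 9 fibroblast markers summed to 37.93 to 40.03 CPM and 36.95 to 40.16 CPM, with 0 of 5 tested higher and 1 lower. The sums of the first 3 lists did not overlap between ribosome-bound and whole-cell RNA, and neither did 58.6% of all single genes tested. Over all genes tested 20.8% were higher and 33.0% lower. The part of such cells in the other changes was not tested.

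The other increases among the 15 named under these limits, at least 10 CPM in the higher group included, were in genes of mixed function; less abundant genes such as Fosl1 (2.30 ± 0.44) and Hand1 (1.61 ± 0.28) reached larger values. Bclaf1, a nuclear protein of RNA processing, was at 239, 262 and 244 CPM in ribosome-bound and 88.6, 98.7 and 86.9 CPM in whole-cell RNA, 2.72-fold higher (1.44 ± 0.06, adjusted p = 1.4e-20). S100a6, a calcium-binding protein, was at 24.2, 22.3 and 21.3 CPM in ribosome-bound against 10.2, 11.7 and 10.3 CPM in whole-cell RNA (1.07 ± 0.07), and Sfn, the 14-3-3 protein sigma, at 70.5, 74.6 and 73.5 CPM in ribosome-bound against 38.7, 36.0 and 33.9 CPM in whole-cell RNA (1.01 ± 0.05). Lack of overlap between libraries was among the limits by which these genes were named. Id3, an inhibitor of helix-loop-helix factors (0.96), Calcoco2, an autophagy receptor (1.01), Dmrtb1 (0.98) and AU015836 (1.00) completed the 15 named by size, with Serpine2, Jun, Malat1 and 5 two-cell-like genes.

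A list of noncoding RNAs, many of them nuclear, was mostly lower, with 11 of 19 tested members lower and 3 higher (median -0.38). Rian, transcribed from the imprinted Dlk1-Dio3 region, was at 75.7, 78.4 and 75.2 CPM in whole-cell and 15.0, 14.9 and 16.3 CPM in ribosome-bound RNA (-2.31 ± 0.05, 4.96-fold lower), and H19 fell from 1.89, 1.92 and 2.497 CPM in whole-cell to 0.230, 0.155 and 0.394 CPM in ribosome-bound RNA (-2.97 ± 0.30). Malat1, an abundant RNA of nuclear speckles, went the other way, at 158, 129 and 144 CPM in ribosome-bound and 44.7, 64.8 and 69.8 CPM in whole-cell RNA (1.27 ± 0.10, adjusted p = 2.4e-13). All 3 ribosome-bound libraries lay above the whole-cell libraries, as the limits for the 15 named increases required. Meg3, a neighbour of Rian, was also higher (0.42 ± 0.04). Of all 390 genes annotated as lincRNA 46 were higher (11.8%) and 82 lower, and of 708 processed pseudogenes 81 were higher (11.4%) and 135 lower (19.1%), against 20.8% and 33.0% of all genes tested; the shares of both types were under those of all genes in either direction.

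The cytosol and the ER enrichment were then compared, each against its own whole-cell libraries, so that the comparisons share no library. Of the 16221 genes, 3010 (18.6%) had a higher and 4023 (24.8%) a lower enrichment on cytosol-labelled than on ER-labelled ribosomes by the test of the difference. With scaling on cytosolic gene lists alone these became 457 and 6210, a shift of the median difference by -0.225, so the split is relative to the scaling. 1771 genes were lower on cytosol-labelled and higher on ER-labelled ribosomes with a difference past the threshold, and 438 had the opposite pattern. 3037 genes were lower in both enrichments and 1551 higher in both; 250 were lower by more than 2-fold in both.

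The reversal ran through the secretory lists. In the ER enrichment 32.5% of all genes were higher and 30.6% lower, 63.1% in either direction. The median of the 34 ER chaperones was -0.39 in the cytosol and 1.78 in the ER enrichment, and all 34 had a lower enrichment on cytosol-labelled ribosomes by the test of the difference. All 40 surface receptors, 28 solute carriers, 30 lysosomal and 34 secreted or matrix genes did so too. Ddost, a subunit of the oligosaccharyltransferase, was at 114, 107 and 118 CPM on cytosol-labelled and 714, 733 and 711 CPM on ER-labelled ribosomes, with 156, 153 and 152 CPM in the cytosol whole-cell libraries. Its changes were -0.44 ± 0.04 and 2.22 ± 0.04, a difference of -2.66 ± 0.05 (adjusted p = 5.1e-30). Bsg, basigin of the cell surface, had changes of -0.47 and 2.14 (difference -2.61 ± 0.06). Igf2r, by contrast, was lower on cytosol-labelled ribosomes and had a change of 0.03 on ER-labelled ones, and Lrp2 was lower on both (-2.31 and -1.21).

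**Figure D4:**
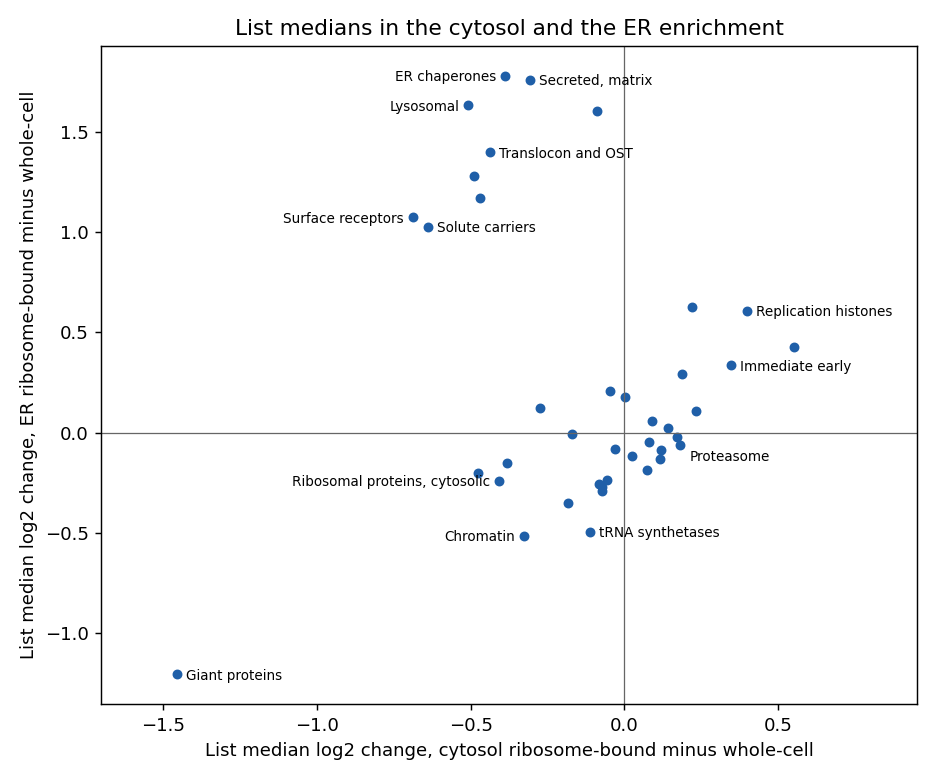
Median log2 change of each gene list in the cytosol enrichment (x axis) and the ER enrichment (y axis), with the mitochondrially encoded and two-cell-like lists left out for scale. Secretory lists lie at upper left, giant proteins at -1.45 and -1.21 lie low on both axes, and replication histones at 0.40 and 0.61 lie high on both.

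Giant and ribosomal protein transcripts were lower on both pools of ribosomes. The giant proteins had medians of -1.45 and -1.21, with 36 of 36 and 35 of 36 lower, although 21 of the 36 had a lower enrichment on cytosol-labelled ribosomes by the test of the difference. Ribosomal proteins had medians of -0.41 and -0.24 and were lower in 74 and 68 of 77 cases, with 58 differing in the direction of lower on cytosol. Ftl1 had changes of -1.58 and -1.35, Fth1 of -1.13 and -0.77, Pabpc1 of -1.06 and -0.83, and Mars1 of -2.70 and -2.65. Two-cell-like markers were higher in both (medians 2.79 and 2.23), and so were immediate early genes (0.35 and 0.34).

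Cytosolic machinery stood higher on the cytosol-labelled ribosomes as scaled, a lead that is relative to the scaling. By the test of the difference the enrichment was higher on cytosol-labelled ribosomes for 25 of 32 proteasome subunits, 43 of 77 mitochondrial ribosomal proteins, 37 of 55 replication and mitosis genes, 32 of 54 splicing factors, 25 of 32 cytosolic chaperones and 16 of 20 aminoacyl-tRNA synthetases. Scaled on 5 cytosolic lists, which include the proteasome, chaperones and synthetases, the counts became 8, 2, 8, 12, 5 and 6 higher and 5, 14, 13, 18, 7 and 4 lower, in the same order. Such scaling sets the 5 lists near no difference on average, so it cannot decide whether they lead. Srfbp1, which binds serum response factor, was at 54.0, 62.3 and 61.5 CPM on cytosol-labelled ribosomes against 45.9, 44.7 and 47.0 CPM in whole-cell RNA (0.37 ± 0.05) and had a change of -0.31 ± 0.05 in the ER enrichment (difference 0.68 ± 0.07, adjusted p = 8.2e-10). Eif2s2 had changes of 0.56 and 0.14, and Psmd13, a lid subunit of the proteasome, of 0.33 and -0.06. These differences were far smaller than those of the secretory genes: among called genes with at least 10 CPM in 1 of the groups, no overlap of the ribosome-bound libraries, no pseudogenes and no Gm or Rik names, the 10 largest in this direction lay between 0.62 and 0.80, the 10 largest in the other between -2.76 and -2.54.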

How the data were processed

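Ribosome-bound and whole-cell RNA of mouse embryonic stem cells was sequenced as poly(A)-selected directional libraries, 3 per group in 4 groups, per the labels' protocols. The deposited files give whole-number read counts per gene and library; the submitters' processing notes name STAR 2.7.9a, HTSeq 0.11.2, DESeq2 and GRCm39. Of the annotation release, strand setting and treatment of reads with several places, the sources used here give none, so overlapping, antisense and near-identical genes are uncertain. The 5 class totals at the end of each file were left out of library sizes and tests. Under cytosol targeting these classes together, multi-place reads included, held 9.32% to 10.1% of ribosome-bound and 11.8% to 12.5% of whole-cell reads. Reads on no gene alone made up 2.62% to 2.81% and 3.34% to 4.05%. Identifiers were matched to GENCODE M21 for names and transcript sequences (52135 of 55416; the rest hold 0.399% of counts).

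From the deposited counts, edgeR 4.0.16 in R 4.3.3 was used: filterByExpr by group with a minimum count of 10, TMM scaling, 1 quasi-likelihood model over 12 libraries and 4 groups, Benjamini-Hochberg adjustment and a threshold of 0.05. SE is the log2 change divided by the square root of F. The common biological coefficient of variation was 3.61%. Between replicates of the cytosol groups, log CPM correlated at 0.994 to 0.995, and counts differed by a chi-square of 2.22 to 9.10 per gene, so no library was a copy. With 50 genes each changed by 1.25, 1.5, 2 and 4-fold among 16221 in simulated counts for the cytosol comparison, 60%, 66%, 88% and 98% were recovered with 9 false calls. Alternatives were DESeq2 1.42.0, other filters and scalings, the 6 cytosol libraries alone, a replicate block and fits without each library.

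Named genes were the 15 largest changes each way among called genes with at least 10 CPM in the higher group, no overlap of libraries, no pseudogenes, and no names of the Gm or Rik kind; up to 4 called members each way and the member nearest 0 of each of 42 lists; all members of lists with at most 15 tested; the 10 most abundant mRNAs; Rpl31; and the 10 largest differences of enrichment each way. Stem cell markers and the ribosomal protein genes Rps27, Rpl13a and Rps18 were added. The comparison and lists were chosen with earlier results of these data known. Hydrophobic stretches were windows of 19 residues of the translated coding sequence with a mean Kyte-Doolittle value of at least 1.6 (stricter 1.9), or 12 residues near the N-terminus with at least 2.2 (stricter 2.6). Shared sequence was counted over 50-base stretches of the longest transcript. Pyrimidine runs were read from RefSeq promoters on GRCm38.p6, and other sequences from GENCODE M21 transcripts.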

Additional observations from a re-analysis of the deposited data

Results flagged for a closer look

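The enrichment on cytosol-labelled ribosomes differed from that on ER-labelled ribosomes by edgeR's test of the difference for 3010 genes that were higher and 4023 that were lower on cytosol-labelled ribosomes. Differences (log2, cytosol minus ER) were ranked among called genes with at least 10 CPM in 1 of the groups, no overlap between the ribosome-bound libraries of both targetings, no pseudogenes and no Gm or Rik names, which leaves out Gm5662 at 0.69. Under these limits the 10 largest toward the cytosol were Usp17le at 0.804, Zscan4f at 0.777, Srfbp1 at 0.68, AI661453 at 0.667, Lmnb2 at 0.661, Myef2 at 0.649, Taf15 at 0.649, Dlat at 0.637, Rcc1 at 0.628 and Kctd1 at 0.623. Lmnb2 and Dlat had almost no change in the cytosol enrichment itself (-0.01 and 0.03). In the other direction stood Pmel at -2.76, Ddost at -2.66, Bsg at -2.61, Fkbp7 at -2.59, Susd2 at -2.57, Pigs at -2.56, Psap at -2.56, Lman1 at -2.55, Napsa at -2.54 and Pdia6 at -2.54.

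Reads that fell on more than 1 gene, which no comparison uses, made up 1.048% of counts in the lowest cytosol ribosome-bound library, just above the highest whole-cell library.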

How the results depend on the processing

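Counts of genes higher and lower in the cytosol enrichment stayed within 1.5 times the values as fitted under all 20 alternatives, and no gene called in both an alternative and the fit as reported changed sign. Of 366 named genes 319 kept direction and side of the threshold throughout. With at least 5 CPM required, the genes over 2-fold were 64 higher and 308 lower, since low genes are not tested. Scaled on cytosolic lists, the difference of enrichments gave 457 higher and 6210 lower on cytosol. Without single libraries the ranges were 3040 to 4227 higher, 4439 to 5326 lower, 318 to 371 over 2-fold higher, 506 to 635 over 2-fold lower, 2800 to 3820 higher and 3654 to 3961 lower for the difference, and -0.24 to -0.17 for the log2 change of Rpl31. The median of the interferon list turned to -0.1244 without whole-cell replicate 1 and was 0.1194 without replicate 3, and Psma3 turned to 0.07839 (edgeR adjusted p = 0.043) with the 5 CPM filter; the cause was not tested. DESeq2 called 3643 higher and 4577 lower.

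Same-numbered libraries of the cytosol groups deviated together at r = 0.096, 0.100 and 0.056 over 9612 genes, and ribosome-bound replicate 3 correlated as well with whole-cell replicate 1 (0.0589), so the numbers were not treated as pairs. With a replicate block 3343 genes were higher and 5326 lower. Library depth was even, and at low counts small changes were not detectable at this depth.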
